A study of Caenorhabditis elegans with 24 samples.

Results

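The genes described here belong to 6 families of fatty acid metabolism in the nematode Caenorhabditis elegans. They were picked by WormBase symbol, with earlier results of these data known. They are the lipases (lipl), acyl-CoA synthetases (acs), acyl-CoA dehydrogenases (acdh), acyl-CoA oxidases (acox), enoyl-CoA hydratases (ech) and fatty acid elongases (elo). Of 21689 genes measured, 69 carried such a symbol, namely 8 lipl, 22 acs, 13 acdh, 7 acox, 10 ech and 9 elo genes. RNA was sequenced from whole worms on the first day of young adulthood, raised at 20 °C on OP-50-1 bacteria, in 24 libraries of 6 genotypes with 4 libraries each. Wild-type N2 worms (wt) were the controls. The daf-2 mutant carried the allele e1370, and daf-16;daf-2 worms carried mu86 besides it and are called the daf-16 double mutant below. The htz-1 allele bon101 was studied alone, joined to e1370 in daf-2;htz-1 worms (the htz-1 double mutant) and joined to both others in daf-16;daf-2;htz-1 worms (the triple mutant). The alleles act in whole animals, and the sources used here do not say what bon101 does to its gene. As background, DAF-2 is the worm's insulin/IGF receptor, DAF-16 is the FOXO factor that it holds back, and HTZ-1 is the histone variant H2A.Z. The comparisons ask how expression depends on each of them.

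Stored fat is released from triglyceride by lipases, and the lipl genes encode relatives of lysosomal acid lipase. A free fatty acid is joined to coenzyme A by an acyl-CoA synthetase before use, and dehydrogenases in mitochondria or oxidases in peroxisomes then start beta-oxidation, with hydratases taking the next step. Elongases lengthen chains instead. In worms the intestine is a main site of this metabolism, peroxisomal oxidation also shapes the ascaroside pheromones, and overexpressed lipl-4 is known to extend lifespan.

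All values are deposited log2-scale (rlog) values, differences are on that scale, and levels cannot be compared between genes because they are not per length. Of the 69 members, 67 had a mean of at least 3 and were tested among 14482 genes, while lipl-6 and lipl-8 were not. A gene is called where its adjusted p from limma was below 0.05. The read depth is unknown. The htz-1 transcript was no lower with bon101 (11.4 ± 0.13 in htz-1 against 10.9 ± 0.321 in wt, SD, n = 4), so its level does not check the label, and what the allele does to the transcript was not analysed here.

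One library of the triple mutant, labelled replicate 3, stood apart from the other 3. It held lipl-1 at 10.96, whereas the others lay between 2.85 and 4.19. Some known DAF-16 targets were also high in it. sod-3, a superoxide dismutase, was at 7.23 against 2.15 to 3.40, and mtl-1, a metallothionein, was at 14.5 against 7.26 to 8.87. The htz-1 double mutant held these genes at 9.27 to 9.35 and at 15.2 to 15.7. Another target, dod-3, was at 12.765, within the 11.48 to 12.83 of the others. The htz-1 double mutant held dod-3 at 14.19 to 14.76. tts-1 was at 10.13, against 6.56 to 8.75 in the others and 10.98 to 11.43 in the htz-1 double mutant. The daf-16 transcript was at 9.72, against 8.47 to 9.55 in the others. It was at 9.94 to 10.34 in the htz-1 double mutant and at 9.70 to 9.99 in the daf-16 double mutant. lipl-3 was at 9.43, above the others (6.45 to 7.05) and the htz-1 double mutant (7.03 to 7.41). Of the 26 members that differed between the other 3 libraries and the htz-1 double mutant, 18 were nearer to the htz-1 double mutant in this library, and over all genes the same held for 33.0% of 4208. It was so for 17 of the 18 members that were lower in the triple mutant and for 1 of the 8 that were higher, and over all genes for 1038 of 2430 and for 350 of 1778. What this library holds was not tested, and results for the triple mutant are given with and without it. Each SE pools the spread of all 24 libraries. For genes in which this library stood apart, it therefore also widens the SE of comparisons without the triple mutant. Those comparisons were fitted without it only in the setting that used just the groups compared, which leaves out other groups as well.

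In daf-2 compared with wt, 5 members rose and 8 fell, against 6.43% of all genes called higher and 5.95% called lower. The 5 rises are 7.46% of the 67 members and the 8 falls 11.9%. The rises were 4 of 6 tested lipases and 1 synthetase, and the falls were 3 dehydrogenases, 2 oxidases and 1 gene each from the synthetases, hydratases and elongases. Centring each library on its median gave 6 rises and 6 falls, and quantile normalization 6 and 5. There were 6 rises and 4 falls without daf-2 replicate 1, 5 and 3 without wt replicate 3, 3 and 6 without wt replicate 2, and 3 and 7 without daf-2 replicate 2. From daf-2 to the daf-16 double mutant, 17 members rose and 10 fell, against 16% and 9.65% of all genes. Of these, 6 of 9 elongases and 4 of 13 dehydrogenases rose, and 3 of 6 lipases and 6 of 22 synthetases fell. The split was 10 and 10 with centring, which moved the median of all genes from 0.03 to -0.13, and 13 and 12 with quantile normalization. It was 9 and 9 without daf-2 replicate 1, 10 and 10 without replicate 3 of the daf-16 double mutant, and 18 and 6 without replicate 1 of the latter.

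With bon101, falls outnumbered rises among the members in all 3 backgrounds. In htz-1 compared with wt, 12 rose and 29 fell, against 26.4% and 24.5% of all genes, and quantile normalization gave 17 and 25. In the htz-1 double mutant compared with daf-2, 7 rose and 22 fell, against 20.4% and 20.1%. In the triple mutant compared with the daf-16 double mutant, 12 rose and 30 fell, against 24.1% and 24.3%. Without the library labelled replicate 3 these were 11 and 34, against 23.7% and 24.5%. Centring gave 15 and 21 there and moved the median of all genes from 0.03 to 0.26. Shares of all genes are given for the main fit and the fit without the library labelled replicate 3, and not for other settings. The members called higher in all 3 comparisons were lipl-4, lipl-7, acs-3, acs-12, acs-16 and acdh-10, which is 6 of 67 against 10.1% of all genes. Those called lower in all 3 numbered 18, or 26.9%, against 13.5% of all genes, and included 5 elongases.

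Among worms that all carry bon101, the triple mutant differed from the htz-1 double mutant with 8 rises and 14 falls, against 12.8% and 17.4% of all genes. Without the library labelled replicate 3 these were 8 and 18, against 12.3% and 16.8%. The htz-1 double mutant differed from htz-1 with 11 rises and 2 falls, against 11.5% and 8.04%, and centring gave 8 and 3. The change with bon101 was more positive in daf-2 than in wt for 7 members and more negative for 3, against 7.78% and 5.57%. Comparing that change in the daf-16 double mutant with daf-2, it was more positive for 3 and more negative for 13, against 10% and 16.5%. The last split was 1 and 17 without the library labelled replicate 3, against 10.4% and 17.2% of all genes. It was 5 and 9 with centring, and 7 and 12 with quantile normalization.

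**Figure D1:**
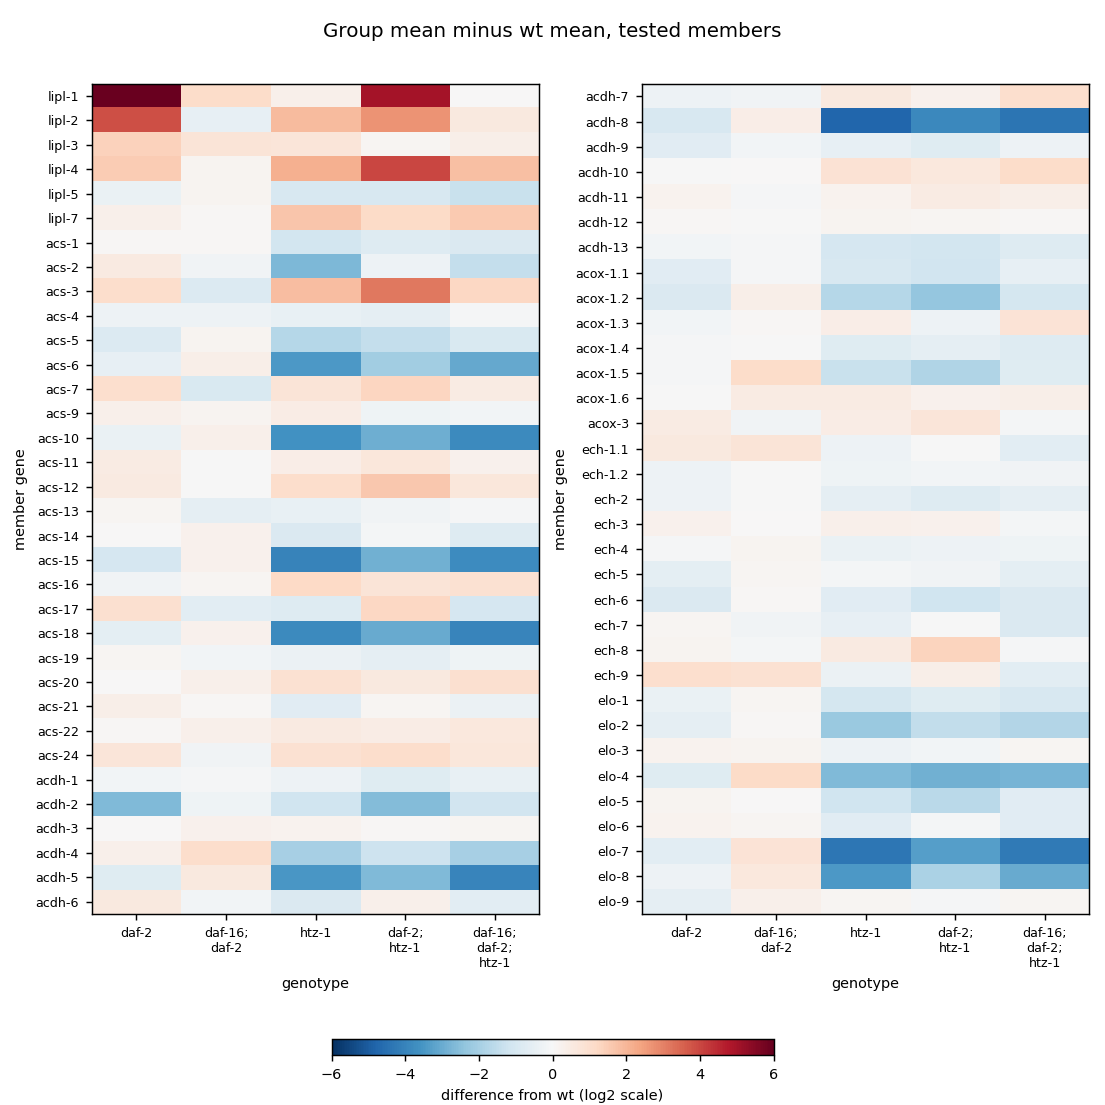
Difference of each mutant group's mean (columns) from the wt mean for the 67 tested members (rows, by family), on the log2 scale, with the triple mutant's library labelled replicate 3 included. lipl-1 in daf-2 (5.92) is among the highest cells, and acdh-8 (-4.74) and elo-7 (-4.32) in htz-1 are among the lowest.

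The lipase lipl-1 (chromosome V, 12919986 to 12921692, plus strand of WBcel235), known to be induced by fasting, followed the daf-2 and daf-16 alleles. It lay at 5.61, 5.31, 5.21 and 5.11 in wt, at 11.01, 11.52, 11.48 and 10.89 in daf-2 and at 7.21, 6.64, 5.81 and 5.98 in the daf-16 double mutant. With bon101 it lay at 6.07, 5.84, 4.79 and 5.69 alone and at 10.49, 10.299, 10.21 and 10.19 in the htz-1 double mutant. In the triple mutant it lay at 4.19, 2.85, 10.96 and 3.24. Libraries of daf-2 and of the htz-1 double mutant were all higher than those of wt, htz-1 and the daf-16 double mutant, and the triple mutant was low apart from replicate 3. The difference of daf-2 from wt was 5.92 (SE 0.98, adjusted p = 0.000175). The daf-16 double mutant differed from daf-2 by -4.82 (SE 0.98, adjusted p = 0.000986). With bon101 in both groups, the daf-2 allele gave a difference of 4.697 (SE 0.98, adjusted p = 0.00127). These groups did not overlap. The triple mutant differed from the htz-1 double mutant by -4.99 (SE 0.98, adjusted p = 0.000434), and by -6.87 (SE 0.33, adjusted p = 2.19e-13) without the library labelled replicate 3. Against the daf-16 double mutant its difference was -1.1 (SE 0.98, adjusted p = 0.375), and -2.98 (SE 0.33, adjusted p = 7.94e-08) without that library. The bon101 change in the daf-16 double mutant less that in daf-2 was not called with all libraries. Without that library it was -2.05 (SE 0.46, adjusted p = 0.00229).

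Its relative lipl-2 (chromosome V, 9791567 to 9793241, plus strand) was high in daf-2 and also rose with bon101 alone. It lay at 7.201, 7.39, 6.35 and 6.16 in wt, at 10.197, 11.52, 10.55 and 10.38 in daf-2 and at 6.56, 6.97, 6.34 and 5.32 in the daf-16 double mutant. With bon101 it lay at 9.52, 9.21, 7.602 and 8.27 alone, at 9.73, 9.45, 9.28 and 9.36 in the htz-1 double mutant and at 7.44, 6.44, 9.88 and 5.73 in the triple mutant. Both daf-2 and htz-1 stood clear of wt, and wt overlapped the daf-16 double mutant. Its rise was 3.89 (SE 0.58, adjusted p = 5.33e-05) in daf-2 and 1.88 (SE 0.58, adjusted p = 0.00927) in htz-1. From daf-2 to the daf-16 double mutant it changed by -4.37 (SE 0.58, adjusted p = 7.03e-06). The bon101 change in daf-2 was -1.21, and that change less the one in wt was -3.09 (SE 0.83, adjusted p = 0.0147). The corresponding contrast of the daf-16 double mutant with daf-2 was 2.29 (SE 0.83, adjusted p = 0.0425) and was not called without the library labelled replicate 3, at 1.45 (SE 0.62, adjusted p = 0.0809).

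The lysosomal lipase lipl-4 (chromosome V, 6550171 to 6552186, plus strand) was higher with either allele and highest with both. It lay at 5.405, 4.49, 4.79 and 5.71 in wt, at 6.52, 7.199, 6.298 and 6.52 in daf-2 and at 3.94, 5.31, 5.72 and 6.03 in the daf-16 double mutant. With bon101 it lay at 7.01, 7.27, 7.41 and 7.17 alone, at 9.03, 9.08, 9.18 and 9.198 in the htz-1 double mutant and at 6.26, 6.27, 8.46 and 6.69 in the triple mutant. No library of the htz-1 double mutant overlapped another group, and wt overlapped the daf-16 double mutant. Relative to wt it rose by 1.53 (SE 0.42, adjusted p = 0.0149) in daf-2 and by 2.12 (SE 0.42, adjusted p = 0.000143) in htz-1. The daf-2 call was lost without wt replicate 2 or daf-2 replicate 2. The bon101 rise was 2.49 (SE 0.42, adjusted p = 4.18e-05) in daf-2 and 1.67 (SE 0.42, adjusted p = 0.00175) in the daf-16 double mutant, the latter being 1.15 (SE 0.36, adjusted p = 0.0106) without the library labelled replicate 3. The difference between the bon101 changes in daf-2 and wt was not called (0.37, 95% interval -0.84 to 1.58). The triple mutant differed from the htz-1 double mutant by -2.204 (SE 0.42, adjusted p = 0.00027), and by -2.72 (SE 0.36, adjusted p = 3.73e-06) without that library. The bon101 change in the daf-16 double mutant less that in daf-2 was not called with all libraries. Without that library it was -1.34 (SE 0.49, adjusted p = 0.0453). Between the daf-16 double mutant and daf-2 the difference was -1.38 (SE 0.42, adjusted p = 0.018), a call lost without daf-2 replicate 2 or the first replicate of the daf-16 double mutant.

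**Figure D2:**
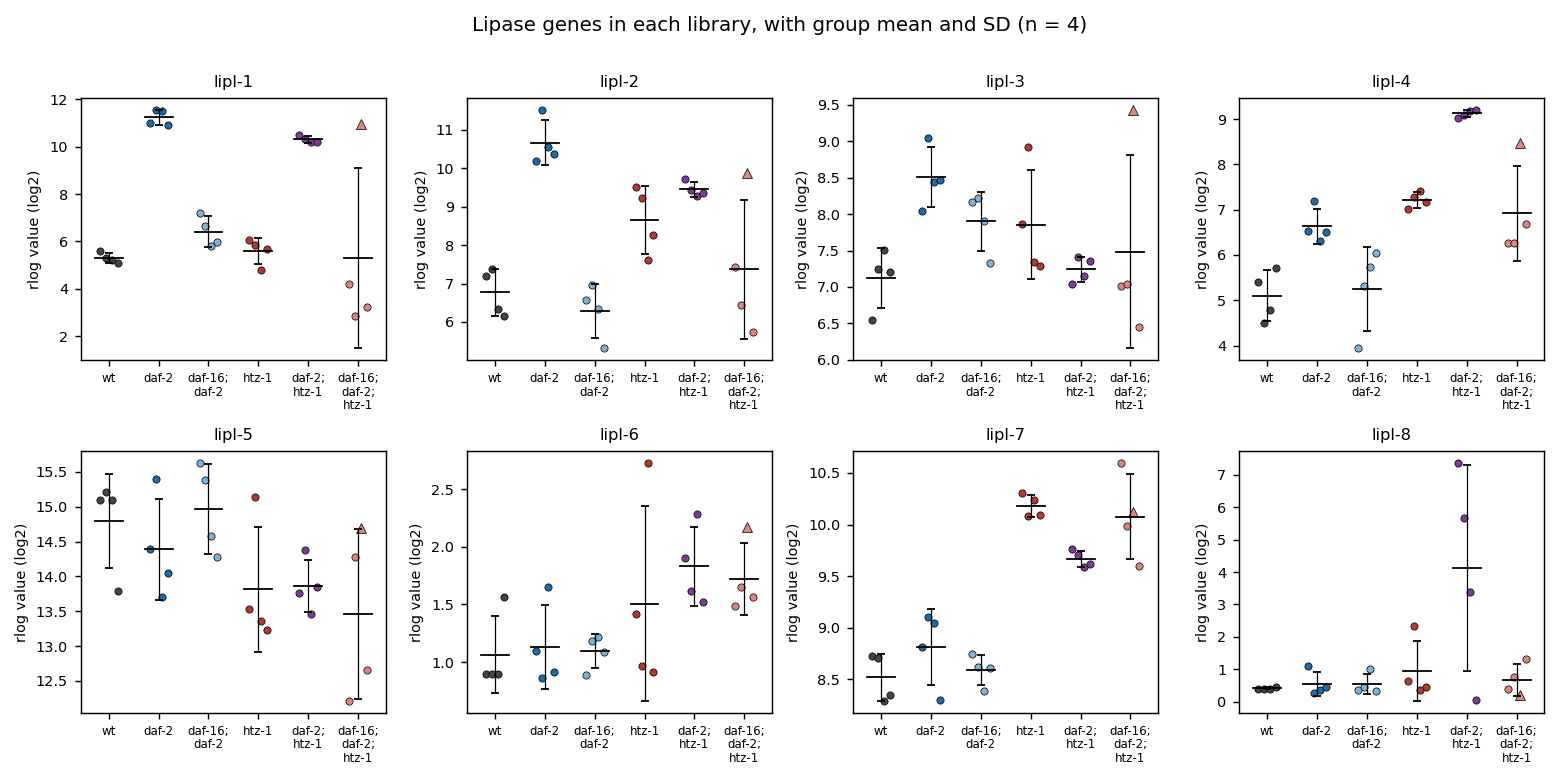
rlog value (log2) of the 8 lipase genes in every library, by genotype, with group means and SDs (n = 4) and a triangle for the triple mutant's library labelled replicate 3. lipl-1 is high in daf-2, in the htz-1 double mutant and in the triangle (10.96), and lipl-4 is highest in the htz-1 double mutant.

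The remaining tested lipases moved less. lipl-3 (chromosome V, 521595 to 524218, minus strand), also induced by fasting, lay at 6.54, 7.25, 7.51 and 7.204 in wt, at 8.05, 9.05, 8.44 and 8.47 in daf-2 and at 7.03, 7.41, 7.15 and 7.36 in the htz-1 double mutant. Its daf-2 libraries were above both other groups. It rose in daf-2 by 1.38 (SE 0.44, adjusted p = 0.0391), and the htz-1 double mutant differed from daf-2 by -1.26 (SE 0.44, adjusted p = 0.0237). The first call was lost without any 1 of wt replicates 1, 2 and 4 and daf-2 replicates 2, 3 and 4, and the second without daf-2 replicate 2 or replicate 1 or 3 of the htz-1 double mutant. lipl-3 overlaps srw-107 on the same strand, so their reads may not be separate. lipl-7 (chromosome IV, 10239278 to 10241823, minus strand) rose with bon101 by 1.66 (SE 0.18, adjusted p = 4.6e-08) in wt, by 0.85 (SE 0.18, adjusted p = 0.000605) in daf-2 and by 1.49 (SE 0.18, adjusted p = 2.1e-07) in the daf-16 double mutant. The rise was smaller in daf-2 than in wt, by -0.81 (SE 0.26, adjusted p = 0.0391). ech-8 lies 101 bases from lipl-7 on the same strand, and its own htz-1 difference from wt was 0.55 (SE 0.34, adjusted p = 0.18), which was not called. lipl-5 was called in 1 comparison, the triple mutant against the daf-16 double mutant, at -1.51 (SE 0.501, adjusted p = 0.0151), with overlapping groups, and the call was lost without replicate 1 or 4 of the triple mutant or replicate 1 of the daf-16 double mutant. Without the library labelled replicate 3 the last rise of lipl-7 was 1.47 (SE 0.199, adjusted p = 1.34e-06) and the fall of lipl-5 was -1.92 (SE 0.501, adjusted p = 0.00275).

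Both untested lipases were low. lipl-8 (chromosome V, 14745684 to 14748708, minus strand) lay at 7.37, 5.67, 3.38 and 0.04 in the htz-1 double mutant and at no more than 2.34 in any library of the other groups. Of the 4 libraries, 3 were high and replicate 4 was the lowest value of all 24. Fitted with no filter on low values, the htz-1 double mutant exceeded daf-2 by 3.57 (SE 0.848, adjusted p = 0.00214). Its SD in the htz-1 double mutant was 3.17 (n = 4), while the median SD of the 6 groups was 0.43. The SE pools all groups, so this p-value does not measure the spread of the htz-1 double mutant.

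The synthetase acs-2 (chromosome V, 15567394 to 15569897, plus strand), a mitochondrial enzyme induced by fasting, was low in htz-1 and, apart from replicate 3, in the triple mutant. It lay at 8.08, 8.68, 9.17 and 8.81 in wt, at 6.17, 5.35, 6.47 and 5.93 in htz-1 and at 9.13, 8.81, 9.53 and 9.48 in daf-2. Further, it lay at 7.93, 8.298, 9.24 and 8.33 in the daf-16 double mutant, at 8.49, 9.01, 7.86 and 8.23 in the htz-1 double mutant and at 6.95, 6.18, 9.402 and 6.49 in the triple mutant. All htz-1 libraries were below those of every other group but the triple mutant. It fell in htz-1 compared with wt, at -2.705 (SE 0.46, adjusted p = 2.68e-05), and was higher in the htz-1 double mutant than in htz-1 by 2.42 (SE 0.46, adjusted p = 0.000541). In the htz-1 double mutant compared with daf-2 it was not called (-0.84, 95% interval -1.796 to 0.11). The difference between those changes was 1.86 (SE 0.65, adjusted p = 0.0606), also not called. The spread of the library labelled replicate 3 also enters their interval and SE. The fit with only the groups compared leaves it out, and its values for acs-2 are not given here. The triple mutant differed from the daf-16 double mutant by -1.195 (SE 0.46, adjusted p = 0.0356) with overlapping groups, and by -1.91 (SE 0.32, adjusted p = 2.89e-05) without the library labelled replicate 3. Its difference from the htz-1 double mutant was -1.14 (SE 0.46, adjusted p = 0.0642), -1.86 (SE 0.32, adjusted p = 0.000116) without that library, and was called with the batch as a replicate block (adjusted p = 0.0392).

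Another synthetase, acs-3 (chromosome V, 1969528 to 1974514, plus strand), which acts with the nuclear receptor NHR-25, rose with bon101. It lay at 5.73, 4.36, 4.73 and 5.39 in wt, at 6.51, 7.22, 7.44 and 6.51 in htz-1, at 6.79, 5.75, 6.08 and 5.73 in daf-2 and at 8.01, 8.35, 8.28 and 8.21 in the htz-1 double mutant. The groups with bon101 stood above their controls without overlap. Its rise was 1.86 (SE 0.43, adjusted p = 0.000773) in wt, 2.12 (SE 0.43, adjusted p = 0.000343) in daf-2 and 2.05 (SE 0.43, adjusted p = 0.00031) in the daf-16 double mutant, the last being 1.498 (SE 0.36, adjusted p = 0.00147) without the library labelled replicate 3. It was lower in the daf-16 double mutant than in daf-2, at -1.84 (SE 0.43, adjusted p = 0.00309), and lower in the triple mutant than in the htz-1 double mutant, at -1.92 (SE 0.43, adjusted p = 0.00144), or -2.47 (SE 0.36, adjusted p = 1.52e-05) without that library.

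The synthetase acs-17 (chromosome X, 5937506 to 5944510, minus strand) differed between groups that differ in daf-2 and daf-16. It lay at 8.51, 8.76, 8.996 and 8.54 in wt, at 9.25, 9.94, 9.92 and 9.56 in daf-2 and at 8.32, 8.16, 7.94 and 7.904 in the daf-16 double mutant. With bon101 it lay at 8.26, 7.701, 8.19 and 7.56 alone, at 9.79, 10.11, 9.89 and 9.94 in the htz-1 double mutant and at 7.36, 7.19, 9.43 and 6.78 in the triple mutant. Both groups with the daf-2 allele and intact daf-16 stood above the others, except for the triple mutant's replicate 3, which overlapped daf-2. The daf-16 double mutant differed from daf-2 by -1.59 (SE 0.34, adjusted p = 0.00168) and the htz-1 double mutant from htz-1 by 2.003 (SE 0.34, adjusted p = 0.000171). The triple mutant differed from the htz-1 double mutant by -2.24 (SE 0.34, adjusted p = 2.63e-05), and by -2.82 (SE 0.204, adjusted p = 2.85e-10) without the library labelled replicate 3. Neither daf-2 nor htz-1 was called against wt, at 0.97 (SE 0.34, adjusted p = 0.0666) and -0.77 (SE 0.34, adjusted p = 0.0635). The spread of the library labelled replicate 3 enters these SEs. The fit with only the groups compared leaves it out, and its values for acs-17 are not given here. All daf-2 libraries lay above those of wt. Against the daf-16 double mutant the triple mutant's difference was -0.39 (SE 0.34, adjusted p = 0.369), and without the library labelled replicate 3 it was -0.97 (SE 0.204, adjusted p = 0.000363). The bon101 change in the daf-16 double mutant less that in daf-2 was -0.65 (SE 0.49, adjusted p = 0.338), and -1.23 (SE 0.28, adjusted p = 0.00258) without that library. acs-17 overlaps C46F4.3 on the opposite strand, and SMART-Seq2 does not mark strand, so reads from the stretch they share may not be separate.

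acs-7, known from ascaroside synthesis, was lower in the daf-16 double mutant than in daf-2 by -1.903 (SE 0.36, adjusted p = 0.000459), without overlap. It overlaps C01G6.9 on the opposite strand. acs-11 made the 1 acs rise in daf-2 against wt, at 0.48 (SE 0.12, adjusted p = 0.00953), and acs-5 the 1 fall, at -0.83 (SE 0.22, adjusted p = 0.0126). acs-12 rose with bon101 in all 3 backgrounds, by 1.05 in wt (adjusted p = 6.18e-05). acs-20, a synthetase needed for the cuticle barrier, rose in htz-1 by 0.92 (SE 0.24, adjusted p = 0.00214). acs-1, which activates branched-chain fatty acids, was lower with bon101 in all 3 backgrounds, at -1.08 (SE 0.27, adjusted p = 0.00142) in wt, -0.85 (SE 0.27, adjusted p = 0.0126) in daf-2 and -0.904 (SE 0.27, adjusted p = 0.0066) in the daf-16 double mutant, where it was -1.11 (SE 0.27, adjusted p = 0.00147) without the library labelled replicate 3. Of these, the second was lost without daf-2 replicate 3 and the third with centring.

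**Figure D3:**
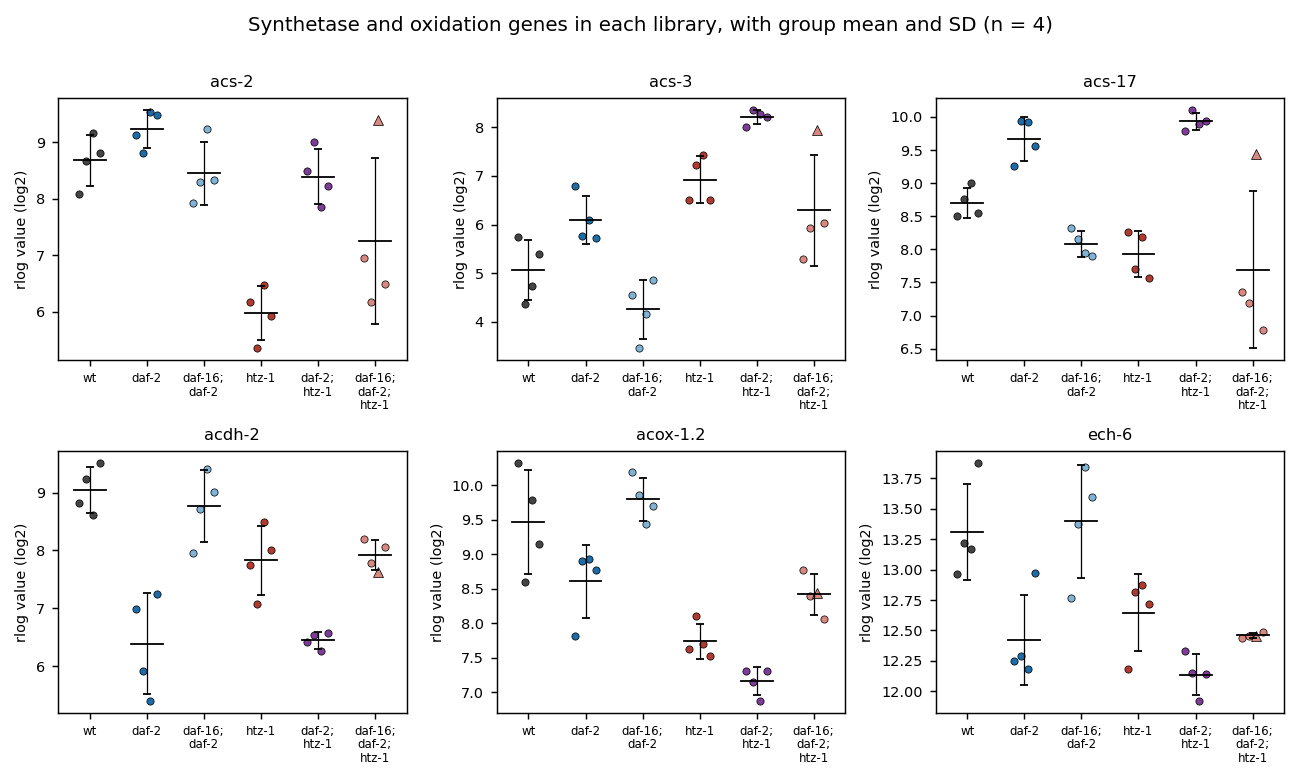
rlog value (log2) of acs-2, acs-3, acs-17, acdh-2, acox-1.2 and ech-6 in every library, by genotype, with group means and SDs (n = 4) and a triangle for the triple mutant's library labelled replicate 3. acs-2 is low in htz-1 and in all but the triangle of the triple mutant, and acdh-2 is low in daf-2 and in the htz-1 double mutant.

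Among the dehydrogenases, acdh-2 (chromosome II, 5544778 to 5547492, minus strand) had its lowest group means where the daf-2 allele met intact daf-16. It lay at 8.82, 9.23, 8.61 and 9.52 in wt, at 6.99, 5.92, 5.39 and 7.24 in daf-2 and at 7.95, 8.71, 9.41 and 9.02 in the daf-16 double mutant. With bon101 it lay at 7.74, 7.07, 8.497 and 8.01 alone, at 6.41, 6.54, 6.26 and 6.57 in the htz-1 double mutant and at 8.199, 7.79, 7.63 and 8.06 in the triple mutant. The daf-2 values were below all values of wt and of the daf-16 double mutant. The difference of daf-2 from wt was -2.66 (SE 0.35, adjusted p = 1.03e-05). That of the daf-16 double mutant from daf-2 was 2.38 (SE 0.35, adjusted p = 2.52e-05). The htz-1 double mutant differed from htz-1 by -1.38 (SE 0.35, adjusted p = 0.00634), and the triple mutant from the htz-1 double mutant by 1.47 (SE 0.35, adjusted p = 0.00251), or 1.57 (SE 0.38, adjusted p = 0.00318) without the library labelled replicate 3. acdh-2 was also called lower in htz-1 than in wt, without overlap of these groups. With all libraries it was called lower in the triple mutant than in the daf-16 double mutant. Without the library labelled replicate 3 that difference was not called, at -0.76 (SE 0.38, adjusted p = 0.107). acdh-2 overlaps ins-13 on the same strand. acdh-1, the dehydrogenase of the propionate shunt, was called in 1 of 7 pairwise comparisons, the htz-1 double mutant against daf-2, at -0.58 (SE 0.22, adjusted p = 0.0396). Its difference of the triple mutant from the daf-16 double mutant was -0.38 (SE 0.22, adjusted p = 0.16), and -0.61 (SE 0.205, adjusted p = 0.0175), which was called, without the library labelled replicate 3. acdh-7 and acdh-10, neighbours 114 bases apart on chromosome X, rose in the triple mutant compared with the daf-16 double mutant, by 1.23 (SE 0.27, adjusted p = 0.000497) and 1.104 (SE 0.22, adjusted p = 0.000194), and by 1.27 and 1.15 without the library labelled replicate 3.

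The peroxisomal oxidases acox-1.1, acox-1.2, acox-1.3 and acox-1.4 lie in a run on chromosome I from 12938555 to 12954003, 34 to 343 bases apart. acox-1.1, which shortens ascaroside side chains, lay at 10.099, 9.99, 10.71 and 10.09 in wt, at 9.33, 9.43, 9.87 and 9.58 in daf-2 and at 9.23, 9.55, 9.37 and 8.902 in htz-1. The wt libraries were above both mutants. Its difference from wt was -0.67 (SE 0.17, adjusted p = 0.01) in daf-2, a call lost without wt replicate 3, and -0.96 (SE 0.17, adjusted p = 4.59e-05) in htz-1. The daf-16 double mutant was higher than daf-2 by 0.59 (SE 0.17, adjusted p = 0.0151), which was lost with centring and without daf-2 replicate 1. For acox-1.2 the values were 10.33, 8.59, 9.79 and 9.15 in wt, 7.81, 8.9, 8.94 and 8.78 in daf-2, 10.19, 9.86, 9.44 and 9.7 in the daf-16 double mutant and 7.62, 8.11, 7.702 and 7.52 in htz-1. It was low in htz-1, at -1.73 (SE 0.29, adjusted p = 1.76e-05) from wt. Its daf-2 difference from wt was -0.86 (SE 0.29, adjusted p = 0.049), with overlapping groups, and was not called with the batch as a replicate block (adjusted p = 0.0578). In the triple mutant compared with the htz-1 double mutant, acox-1.1, acox-1.2, acox-1.3 and acox-1.5 were higher, by 0.66, 1.26, 1.099 and 1.08, and by 0.65, 1.25, 1.17 and 0.79 without the library labelled replicate 3. acox-1.3 was not called in htz-1 against wt, at 0.38 (SE 0.23, adjusted p = 0.172). Sequence likeness within the run was not computed, so shared reads may have been divided among its genes.

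Of 10 hydratases, 4 fell and none rose with bon101 in wt, 1 fell and 1 rose in daf-2, and 6 fell and none rose in the daf-16 double mutant, beside 24.5%, 20.1% and 24.3% of all genes called lower. ech-6, which follows acdh-1 in the propionate shunt, lay at 12.97, 13.22, 13.17 and 13.88 in wt, at 12.25, 12.29, 12.19 and 12.97 in daf-2 and at 12.77, 13.38, 13.84 and 13.595 in the daf-16 double mutant. The highest daf-2 library overlapped the other groups. Its differences were -0.89 (SE 0.22, adjusted p = 0.00861) for daf-2 from wt and 0.97 (SE 0.22, adjusted p = 0.0025) for the daf-16 double mutant from daf-2. With bon101 it was lower in wt, at -0.66 (SE 0.22, adjusted p = 0.0148), and in the daf-16 double mutant, at -0.94 (SE 0.22, adjusted p = 0.00103), or -0.94 (SE 0.24, adjusted p = 0.00251) without the library labelled replicate 3. The first of these was lost with quantile normalization and without wt replicate 4 or htz-1 replicate 1. ech-8 was higher in the htz-1 double mutant than in daf-2 by 1.195 (SE 0.34, adjusted p = 0.00657).

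Elongases fell with bon101, 7 of 9 in wt, 5 of 9 in daf-2 and 7 of 9 in the daf-16 double mutant, with none higher, while 24.5%, 20.1% and 24.3% of all genes were called lower in these comparisons. elo-5 (chromosome IV, 5374616 to 5377117, minus strand), which makes branched-chain fatty acids, lay at 13.503, 14.17, 13.86 and 13.87 in wt, at 12.51, 13.299, 12.39 and 12.39 in htz-1, at 13.22, 14.59, 14.53 and 13.68 in daf-2 and at 12.13, 12.44, 12.01 and 12.27 in the htz-1 double mutant. All htz-1 libraries lay below those of wt, and all libraries of the htz-1 double mutant lay below those of daf-2. The bon101 difference was -1.205 (SE 0.28, adjusted p = 0.000853) in wt and -1.79 (SE 0.28, adjusted p = 1.93e-05) in daf-2. In the daf-16 double mutant it was -0.73 (SE 0.28, adjusted p = 0.0339), and -0.97 (SE 0.28, adjusted p = 0.00581) without the library labelled replicate 3. elo-6, of the same pathway and 9511 bases from elo-5, was lower in htz-1 than in wt by -0.69 (SE 0.24, adjusted p = 0.019) with overlapping groups, a call lost with quantile normalization and without wt replicate 2 or 4. elo-2, which elongates palmitate, fell in htz-1 by -2.23 (SE 0.18, adjusted p = 5.06e-10), and the fall was smaller in daf-2, by 1.32 (SE 0.26, adjusted p = 0.00137). elo-4 rose from daf-2 to the daf-16 double mutant by 1.91 (SE 0.44, adjusted p = 0.00255). elo-4 and elo-5 overlap genes on the opposite strand.

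The 8 members at least 3 lower in htz-1 than in wt were acdh-8, elo-7, acs-15, acs-18, acs-10, acdh-5, elo-8 and acs-6. acdh-8 (chromosome II, 5794495 to 5796185, plus strand), a dehydrogenase, lay at 11.25, 12.49, 12.45 and 12.29 in wt, at 9.77, 11.43, 11.904 and 11.46 in daf-2, at 12.39, 12.69, 12.63 and 12.43 in the daf-16 double mutant and at 7.19, 7.72, 7.38 and 7.23 in htz-1. It lay at 8.21, 8.26, 7.83 and 8.63 in the htz-1 double mutant and at 7.54, 8.11, 7.41 and 7.92 in the triple mutant. Groups with and without bon101 did not overlap. Its bon101 difference was -4.74 (SE 0.32, adjusted p = 3.46e-11) in wt, -2.91 (SE 0.32, adjusted p = 1.61e-07) in daf-2 and -4.79 (SE 0.32, adjusted p = 2.21e-11) in the daf-16 double mutant. The elongase elo-7 (chromosome IV, 9529947 to 9531400, plus strand) lay at 6.16, 7.99, 7.698 and 8.17 in wt, at 3.71, 2.62, 2.98 and 3.43 in htz-1, at 8.17, 8.37, 8.34 and 8.43 in the daf-16 double mutant and at 4.23, 3.23, 3.33 and 2.33 in the triple mutant. Again the groups with bon101 were the lower ones. Its difference was -4.32 (SE 0.46, adjusted p = 2.64e-08) in wt and -5.05 (SE 0.46, adjusted p = 1.57e-09) in the daf-16 double mutant. Without the library labelled replicate 3 the difference in the daf-16 double mutant was -4.68 for acdh-8 and -5.06 for elo-7. The synthetase acs-15 (chromosome II, 933018 to 936926, plus strand) lay at 6.76, 7.85, 7.46 and 7.26 in wt and at 3.29, 2.63, 3.95 and 3.44 in htz-1, a difference of -4.01 (SE 0.401, adjusted p = 1.08e-08). The differences of the others from wt in htz-1 were -3.84 for acs-18, -3.64 for acs-10, -3.48 for acdh-5, -3.46 for elo-8 and -3.42 for acs-6.

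A list of 8 sperm markers moved with these genes. All 8 were lower in each of the 3 comparisons, with medians of -3.68, -2.08 and -3.91. The mean level of the list per library was 9.98 to 10.8 in wt, 8.64 to 10.4 in daf-2 and 10.5 to 10.98 in the daf-16 double mutant. With bon101 it was 6.84 to 7.25 alone, 7.67 to 8.07 in the htz-1 double mutant and 6.33 to 7.23 in the triple mutant. Of the 12 libraries without bon101, daf-2 replicate 1 had the lowest list level, and all 8 members were lowest in it as well. In such bulk samples fewer cells of a type and less RNA per cell cannot be told apart, and the part of sperm in these differences was not tested.

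**Figure D4:**
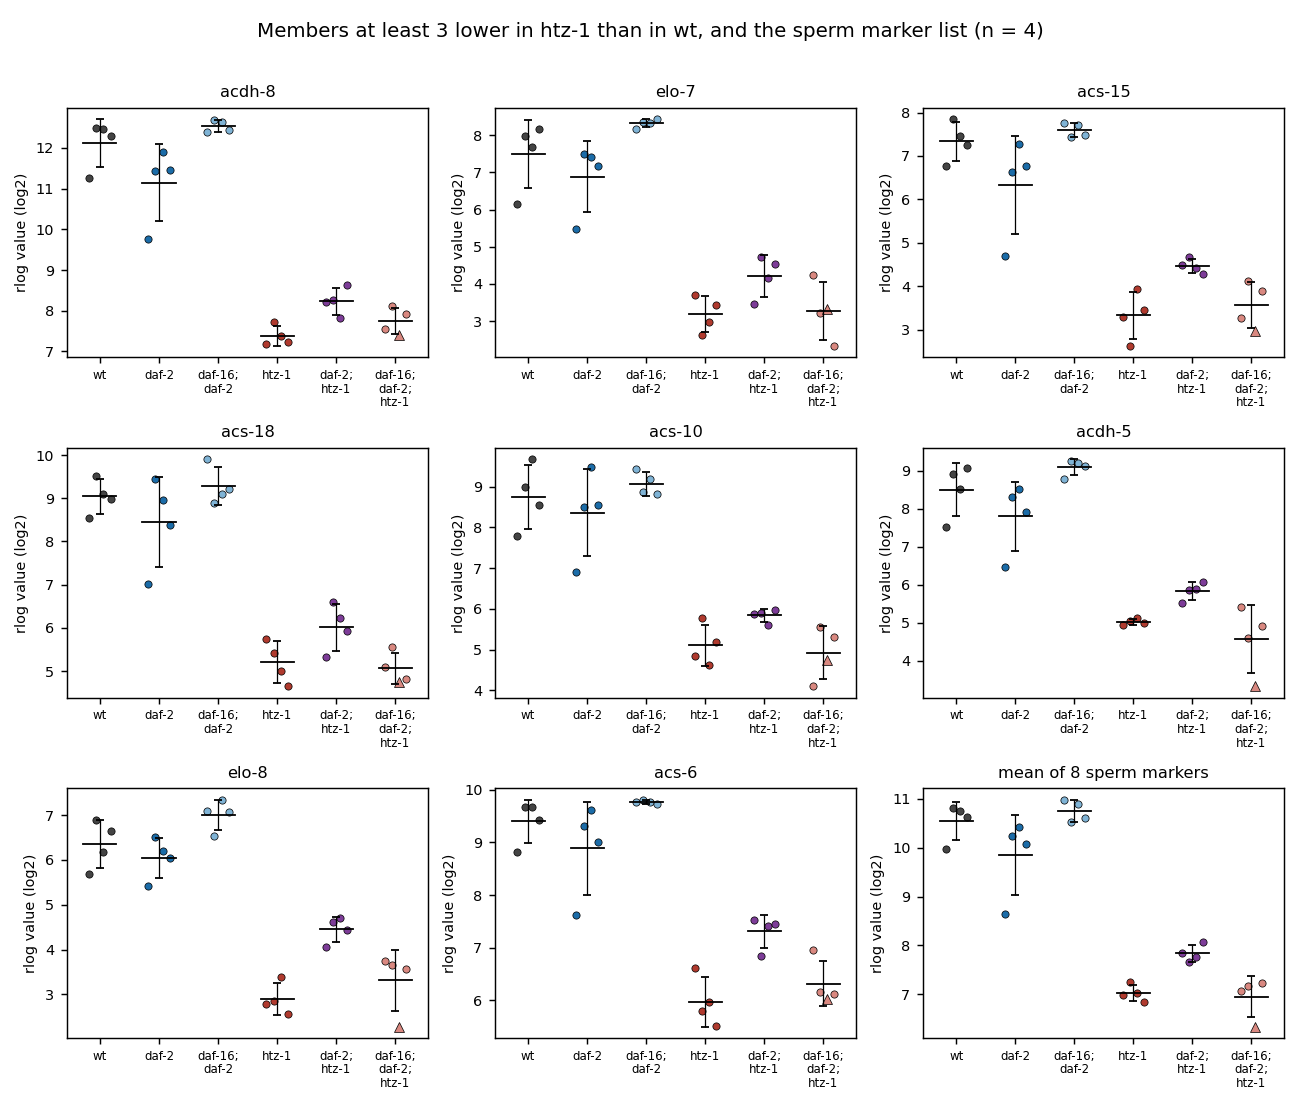
rlog value (log2) in every library, by genotype, of the 8 members at least 3 lower in htz-1 than in wt and of the mean of 8 sperm markers, with group means and SDs (n = 4) and a triangle for the triple mutant's library labelled replicate 3. All 9 panels are lower in the groups with bon101, and daf-2 replicate 1 is the lowest of the 12 libraries without it.

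For several of these members the bon101 change differed between backgrounds. It was less negative in daf-2 than in wt by 2.14 (SE 0.57, adjusted p = 0.0138) for acs-15, 1.87 (SE 0.47, adjusted p = 0.00982) for elo-8, 1.85 (SE 0.45, adjusted p = 0.00816) for acs-6 and 1.83 (SE 0.45, adjusted p = 0.00848) for acdh-8. It was more negative in the daf-16 double mutant than in daf-2 by -2.56 (SE 0.56, adjusted p = 0.00181) for acdh-5, -2.38 (SE 0.65, adjusted p = 0.00862) for elo-7, -2.17 (SE 0.57, adjusted p = 0.00665) for acs-15 and -2.11 (SE 0.47, adjusted p = 0.00211) for elo-8. Without the library labelled replicate 3 these were -2.15, -2.401, -1.97 and -1.77, all called. The sperm list had 4 of 8 genes less negative in daf-2 than in wt and 5 of 8 more negative in the daf-16 double mutant than in daf-2, and its part was not tested.

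As a description across genes, which are not independent replicates, the bon101 differences of the 67 members in wt correlated with those in the daf-16 double mutant at r = 0.94 and with those in daf-2 at r = 0.84. Over all 14482 genes r was 0.92 and 0.78. These pairs share no library. The daf-2 differences without and with bon101, which share none either, correlated at 0.61 over the members and at 0.35 without lipl-1 and lipl-2, and at 0.26 over all genes.

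**Figure D5:**
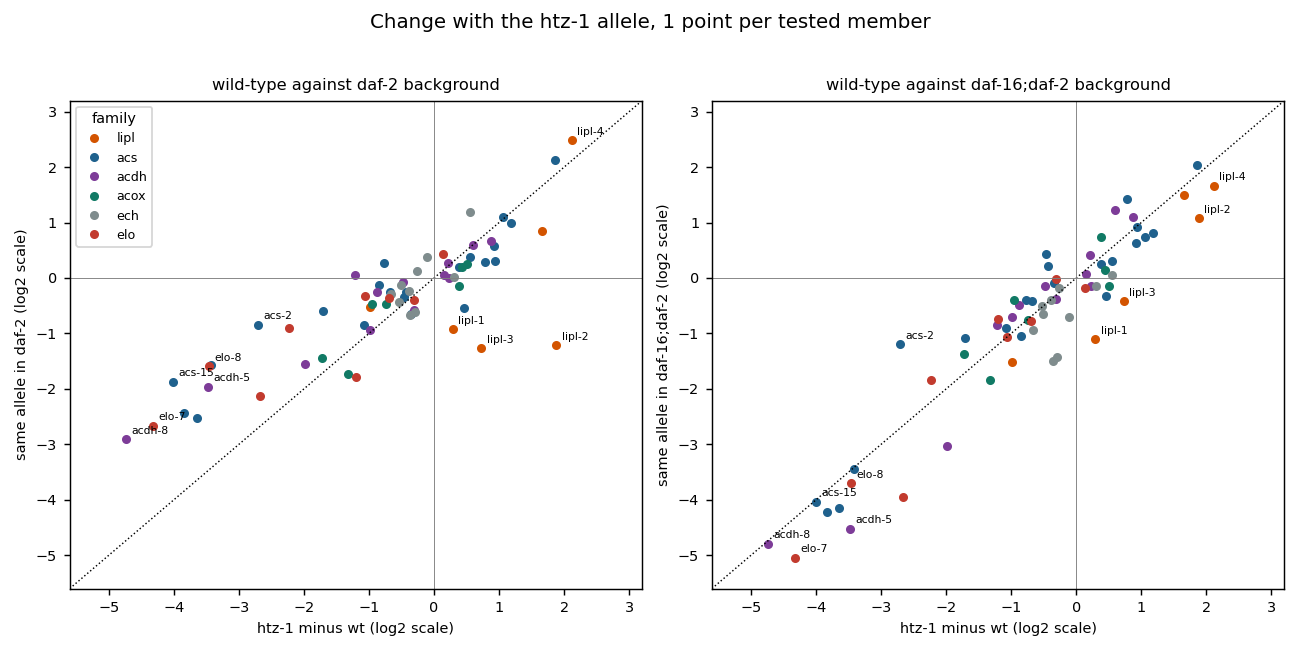
Difference with bon101 in wt (horizontal axis) against that in daf-2 and in the daf-16 double mutant (vertical axes), on the log2 scale, 1 point per tested member coloured by family, with a dotted line of equal change. lipl-2 is at 1.88 in wt and at -1.21 in daf-2, and acdh-8 at -4.74 in wt and -2.91 in daf-2.

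Markers of the intestine, a main site of fat metabolism, moved as well. The mean level of 8 markers was 10.8 to 11.4 in wt, 10.2 to 10.6 in daf-2, 11.2 to 11.7 in the daf-16 double mutant, 9.63 to 10.1 in htz-1, 9.21 to 9.74 in the htz-1 double mutant and 10.1 to 10.6 in the triple mutant. In daf-2 compared with wt 5 of the 8 were lower, and act-5, an intestinal actin, changed by -1.17 (SE 0.24, adjusted p = 0.00142). From daf-2 to the daf-16 double mutant 7 of the 8 were higher and none was lower, against 16% and 9.65% of all genes. The part of this in the member rises there was not tested. In htz-1 compared with wt 6 were lower, and pept-1, a peptide transporter, changed by -3.33 (SE 0.296, adjusted p = 1.81e-09). The other 2 were not called, and 1 of them, the gut esterase gene ges-1, lay at 9.51 to 9.83 in htz-1 and at 9.001 to 9.217 in wt. In the htz-1 double mutant compared with daf-2 4 were lower and 2 higher, namely ges-1 by 1.11 (SE 0.26, adjusted p = 0.0016) and elt-7, a gut GATA factor, by 0.74 (SE 0.23, adjusted p = 0.0139). All 8 members that fell in daf-2 (acs-5, acdh-2, acdh-8, acdh-9, acox-1.1, acox-1.2, ech-6 and elo-2) also fell in htz-1, both being compared with the same wt libraries, and the part of these markers in that was not tested. Of all genes, 24.5% were called lower in htz-1, and sharing wt makes joint falls more likely. The matching share among all genes that fell in daf-2 is not given here, so no trait of the members is read from this count. In htz-1 compared with wt 2 of 8 hypodermis markers were higher and 5 lower, 1 of 8 body wall muscle markers was lower, none of 9 oocyte and germline markers was called, and both tested early embryo markers were higher. From daf-2 to the daf-16 double mutant 5 of 8 body wall muscle and 3 of 8 sperm markers were higher. There 2 of 9 oocyte and germline markers were lower, and no hypodermis or early embryo marker was called.

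Other genes of the pathway, from 8 lists, went both ways in htz-1 compared with wt, where 26.4% of all genes were called higher and 24.5% lower. Several of the counts below are near those shares. Of 7 desaturases 3 rose and 1 fell, and fat-5, which makes palmitoleic acid, changed by 1.68 (SE 0.32, adjusted p = 0.000107). fat-7, which desaturates stearic acid, changed in daf-2 compared with wt by -2.598 (SE 0.23, adjusted p = 2.36e-08). Of 6 carnitine palmitoyl transferases, which carry chains into mitochondria, 2 rose, cpt-6 by 1.73 (SE 0.16, adjusted p = 4.01e-09) and cpt-3 by 2.43 (SE 0.46, adjusted p = 8.85e-05). Of 6 lipid droplet and storage genes 2 rose and 1 fell, and dgat-2, which makes triglyceride, changed by 1.28 (SE 0.19, adjusted p = 3.18e-06). Of 9 lipid-binding proteins 3 rose and 1 fell, with lbp-1 at 1.77 (SE 0.17, adjusted p = 4.44e-09). Of 6 genes of propionate breakdown, not all of the shunt, 2 fell. These were hphd-1 at -1.89 (SE 0.23, adjusted p = 1.65e-07) and alh-8 at -1.33 (SE 0.22, adjusted p = 1.58e-05). The others, mce-1, pcca-1, pccb-1 and mmcm-1, were not called. Of 6 genes of later oxidation steps 2 fell, with the thiolase kat-1 at -1.32 (SE 0.21, adjusted p = 9.53e-06). Of 3 synthesis and elongation partners 2 fell, with pod-2, acetyl-CoA carboxylase, at -1.48 (SE 0.31, adjusted p = 0.000282). Of 11 regulators 1 rose and 4 fell, with the nuclear receptor gene nhr-80 at -1.14 (SE 0.28, adjusted p = 0.00151).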

How the data were processed

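Worm RNA was taken up in Trizol, cleaned with miRNeasy Micro and turned into SMART-Seq2 libraries, which do not mark strand, per the labels' protocols. The log2 values are those the authors deposited, called rlog in the file's name, 1 per gene and library. The submitters' processing notes list bcl2fastq 2.20, kallisto 048.0 and WBcel235 without saying which did what. How the rlog values were made is not given by any source used here. rlog shrinks differences of genes with few reads. Depth is unknown.

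Members were found by symbol in the WBcel235 annotation (Ensembl release 115). With limma 3.58.1 (R 4.3.3), 1 mean per genotype was estimated over all 24 libraries, with an intensity trend, 18 residual degrees of freedom and no batch term, for genes with a mean of at least 3. Tests were 2-sided with Benjamini-Hochberg adjustment over 14482 genes, and the procedure was tested on simulated data. Replicate numbers equal the labelled batch and so pair libraries. The mean correlation of deviations from group means was 0.0504 within a batch (60 pairs, range -0.301 to 0.513). Between batches it was -0.0163 (180 pairs, range -0.522 to 0.487). These ranges overlap, and the means are tied to each other because deviations cancel within each group, so they do not settle whether batches matter. The labels do not say whether replicates are separate cultures, and p-values therefore reflect only the spread among these samples, which may be technical.

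Differences were named for acs-2, acdh-1, acox-1.1, ech-6, elo-5 and lipl-4, for up to 6 rises and 6 falls with non-overlapping groups per pairwise comparison, and for up to 4 each way per difference between backgrounds. Further members, lipl-8 among them, were named after their values were seen. The members and lists were chosen with earlier results of these data known. Alternatives were the batch as a replicate block, no filter or a minimum mean of 5, median centring, quantile normalization, no trend, array weights, only the groups compared, and each library left out. Removing wt 1 and daf-2 1 together was chosen after seeing the data.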

Additional observations from a re-analysis of the deposited data

Results flagged for a closer look

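In groups of 4, a library was noted where its gap to the nearest other library was above Dixon's 95% critical value as a share of the group's range. This was tested in 216 groups of 36 named members, and 12 were noted, while chance alone notes about 1 in 20. For lipl-1 the triple mutant library 3 lay at 10.96 against a median of 3.24 in the others, for acs-6 the htz-1 double mutant library 2 lay at 6.84 against a median of 7.45 in the others, for acs-6 the triple mutant library 1 lay at 6.95 against a median of 6.12 in the others. Further, acdh-8 was 11.2 in wt replicate 1 (median of the others 12.5), acdh-10 was 10.8 in htz-1 double mutant replicate 2 (median of the others 10.2), acox-1.1 was 10.7 in wt replicate 3 (median of the others 10.1). Likewise, acox-1.2 was 7.81 in daf-2 replicate 1 (median of the others 8.90), ech-6 was 12.97 in daf-2 replicate 4 (median of the others 12.2), elo-2 was 11.4 in daf-16 double mutant replicate 1 (median of the others 11.8). Last, elo-5 was 13.3 in htz-1 replicate 2 (median of the others 12.4), elo-7 was 5.47 in daf-2 replicate 1 (median of the others 7.41), elo-8 was 2.28 in triple mutant replicate 3 (median of the others 3.66). The library labelled triple mutant replicate 3 holds the first and last of these.

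The change with the htz-1 allele differed between backgrounds by the test of the difference itself for 26 values. In daf-2 less wt it was lipl-2 (-3.09), lipl-3 (-1.99), lipl-7 (-0.81), acs-5 (1.11), acs-6 (1.85), acs-15 (2.14), acdh-8 (1.83), elo-1 (0.75), elo-2 (1.32), elo-8 (1.87). In the daf-16 double mutant less daf-2 it was lipl-2 (2.29), acs-6 (-1.87), acs-10 (-1.63), acs-14 (-0.92), acs-15 (-2.17), acs-18 (-1.78), acdh-4 (-1.48), acdh-5 (-2.56), acdh-8 (-1.88), acox-1.3 (0.88), elo-1 (-0.74), elo-2 (-0.93), elo-4 (-1.81), elo-5 (1.06), elo-7 (-2.38), elo-8 (-2.11). lipl-2, elo-5 and acs-10 in the second set are no longer called without the library labelled triple mutant replicate 3. Without it, lipl-1 (-2.05), lipl-4 (-1.34), acs-17 (-1.23), ech-7 (-0.74) and ech-8 (-1.55) become called in that set.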

How the results depend on the processing

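Of 213 calls over the 9 comparisons, 132 held in every setting run. Of 4045 single-gene alternative values 3629 kept their side of the threshold, 392 were no longer called, 15 became called and 9 reversed. With only the groups compared, daf-2 against wt had 7 called members, and the htz-1 double mutant against htz-1 had 28. With array weights the triple mutant against the htz-1 double mutant had 39, the htz-1 double mutant against htz-1 had 33, and the differences of the bon101 change had 16 (daf-2 less wt) and 26 (daf-16 double mutant less daf-2). Leaving out 1 library in turn gave 8 to 12 for daf-2 against wt (8 without wt replicate 3) and 10 to 18 for the bon101 change in the daf-16 double mutant less daf-2 (10 without replicate 3 of the former). The cause was not tested. The values that reversed belonged to members that were not called. With quantile normalization acdh-1 was 0.00336 (daf-2 against wt), -0.08997 (daf-16 double mutant against daf-2), 0.0841 (htz-1 against wt) and 0.0348 (triple mutant against the daf-16 double mutant), and with median centring it was -0.0558 for the daf-16 double mutant against daf-2. With libraries left out, elo-5 ran from -0.0428 to 0.416 for daf-2 against wt and from -0.39 to 0.0731 for the daf-16 double mutant against daf-2. With the replicate block, acs-6 in the daf-16 double mutant against daf-2 (adjusted p = 0.0556), acox-1.3 in the htz-1 double mutant against htz-1 (adjusted p = 0.054) and acox-1.3 in the bon101 change of the daf-16 double mutant less daf-2 (adjusted p = 0.0597) were no longer called. acox-1.1 in the triple mutant against the daf-16 double mutant became called (adjusted p = 0.0464). Besides these and the changes of acox-1.2 and acs-2 given above, the block changed no call of a named member. Without wt 1 and daf-2 1, left out after seeing the data, the daf-16 double mutant against daf-2 had 18 called members, 9 each way, the same counts as without daf-2 replicate 1 alone. What depth limits was not computed, since it is unknown.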
